A study of Rattus norvegicus with 12 samples.

Results

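The Wnt genes of the fetal rat kidney were taken by symbol, whatever the level or response of each. The family itself was chosen with earlier results of these data known. The Wnt genes comprise the ligands (Wnt), the Frizzled receptors (Fzd), the co-receptor Lrp5 and the secreted inhibitors of the Sfrp and Dkk families. They also comprise the R-spondins (Rspo), the intracellular proteins Axin2 and Dvl1, and the nuclear factors Tcf7 and Tcf7l1. They numbered 39 of the 14557 genes that carried a symbol of their own on the array, and each was read by 1 transcript cluster, the probe group that the array assigns to a transcript. Other genes that fit the same symbols, among them Wnt7b, Lrp6, Tcf7l2 and Lef1, are not analysed here.

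Kidneys were collected from Sprague-Dawley fetuses at 19 days of gestation and measured on 12 Affymetrix Rat Gene 2.1 ST arrays, 6 per group. In the LD group the mothers had a regular 12:12 h photoperiod during the whole of gestation. In the CPS group (chronic photoperiod shifting) the light and dark phases were reversed repeatedly in gestation, and the regular schedule was restored shortly before collection. Each array held total RNA of a pool of kidneys from 6 fetuses, read here as those of 1 mother, so an array averages over littermates and the fetuses were not sexed. Food and water were freely available to both groups. The collection protocol and the study's methods give 8 h as the clock time, while another label gives 20 h, for LD and CPS alike. The question asked here is how far these genes differed between LD and CPS, and how they varied among pools.

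Wnt ligands are secreted lipid-modified proteins that bind a Frizzled receptor together with an Lrp co-receptor. In the canonical branch this spares β-catenin from degradation, so that it enters the nucleus and joins TCF/LEF factors. Most Sfrp and Dkk proteins hold the signal down outside the cell, and R-spondins raise it. In the mouse, Wnt9b from the ureteric epithelium and Wnt4 from the induced mesenchyme drive the formation of nephrons, and Wnt11 acts at the branching ureteric tips.

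Promoter windows from RefSeq (build GRCr8) were read for the 29 of 39 genes that had one. A window is 300 bases long, 250 before and 50 after the start of the gene. It was searched on both strands for the TCF/LEF letters CTTTGAT, for the E-box CACGTG, which clock factors bind, and for the GC box GGGCGG. No match overlapped a match of another motif. The letters CTTTGAT were in 2 of 29 windows, those of Axin2 and Tcf7, and in 3.63% of all 33469 promoters. Those of Wnt2b and Wnt9a, again 2 of 29, held CACGTG, against 6.42% of all promoters. GGGCGG was in 16 of 29 windows (55.2%) and in 33.1% of all, and the windows of the Wnt genes also held more G and C, with a median of 65.7% against 51.7%. These matches are descriptions of the letters and no evidence of binding. Printed 5′ to 3′ on the strand of the gene, with the matches in capitals, are Axin2 and Tcf7, the genes with CTTTGAT, Wnt2b, a kidney ligand with CACGTG, and Fzd4, a receptor with 6 GC boxes, 2 of which share a base, that is described again below.
Axin2: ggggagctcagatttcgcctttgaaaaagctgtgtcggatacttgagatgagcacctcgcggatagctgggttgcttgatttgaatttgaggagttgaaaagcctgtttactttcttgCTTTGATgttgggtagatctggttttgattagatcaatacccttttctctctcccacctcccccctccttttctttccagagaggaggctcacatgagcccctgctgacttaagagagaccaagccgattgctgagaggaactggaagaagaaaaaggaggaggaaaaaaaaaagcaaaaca
Tcf7: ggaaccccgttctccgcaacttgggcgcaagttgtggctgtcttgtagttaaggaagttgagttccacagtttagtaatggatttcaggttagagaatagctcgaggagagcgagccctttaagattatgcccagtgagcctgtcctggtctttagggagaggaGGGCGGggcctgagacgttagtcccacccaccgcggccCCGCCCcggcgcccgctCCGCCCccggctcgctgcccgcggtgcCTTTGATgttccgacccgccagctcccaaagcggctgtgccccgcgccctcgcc
Wnt2b: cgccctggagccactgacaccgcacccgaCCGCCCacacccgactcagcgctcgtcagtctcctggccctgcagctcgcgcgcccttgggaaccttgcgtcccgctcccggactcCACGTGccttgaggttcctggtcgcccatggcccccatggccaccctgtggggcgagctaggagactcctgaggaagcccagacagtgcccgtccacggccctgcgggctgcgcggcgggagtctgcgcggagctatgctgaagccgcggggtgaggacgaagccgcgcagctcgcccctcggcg
Fzd4: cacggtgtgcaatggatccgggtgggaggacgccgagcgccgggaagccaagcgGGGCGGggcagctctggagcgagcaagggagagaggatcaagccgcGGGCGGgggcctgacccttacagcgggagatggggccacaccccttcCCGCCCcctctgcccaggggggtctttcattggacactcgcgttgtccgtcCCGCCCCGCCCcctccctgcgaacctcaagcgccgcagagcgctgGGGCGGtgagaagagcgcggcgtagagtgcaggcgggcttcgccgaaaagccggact
The windows lie at chr10:94398535-94398834 on the plus strand (Axin2), chr10:36954230-36954529 on the minus strand (Tcf7), chr2:195156896-195157195 on the minus strand (Wnt2b) and chr1:152692257-152692556 on the plus strand (Fzd4). CTTTGAT began 132 bases before the start of Axin2 and 4 bases before that of Tcf7. The E-box began 135 bases before the start of Wnt2b and 175 bases before that of Wnt9a. The windows of Fzd1 and Wnt5a, which reappear with Fzd4 in the account of the pools, held none of these letters.

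The arrays resembled each other closely, with medians from 3.31 to 3.5 (log2) and correlations from 0.978 to 0.987 over all clusters. Every measured gene of the marker lists for nephron progenitors (6 genes), ureteric bud (8), stroma (9), podocytes (3), proximal tubule (4) and endothelium (5) lay above the level of olfactory and vomeronasal receptors, sensory genes that served as a reference for dim signal. Genes of neighbouring tissues were also read. The mean of 12 of the 17 listed liver genes ranged from 4.57 to 6.76 in LD and from 5.06 to 7.20 in CPS, and that of 11 of the 15 listed adrenal cortex genes from 2.81 to 3.21 and from 3.0 to 3.66. Of the adrenal genes 5 of 11 were higher in CPS by limma (unadjusted p under 0.05), while 7 of 11 lay above the dim reference. Of the liver genes 1 of 12 was higher, where limma called 2.94% of all 14557 genes higher. The mean of 8 muscle genes ranged from 4.06 to 5.34 in LD and from 4.20 to 7.19 in CPS, highest in CPS replicate 1. Of these muscle genes 1 of 8 was higher by limma. Beside the genes described singly, fits with the liver and adrenal means as covariates are given where they end or make a call or turn a sign. In pooled tissue, fewer cells of a type and less RNA per cell cannot be told apart.

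**Figure D1:**
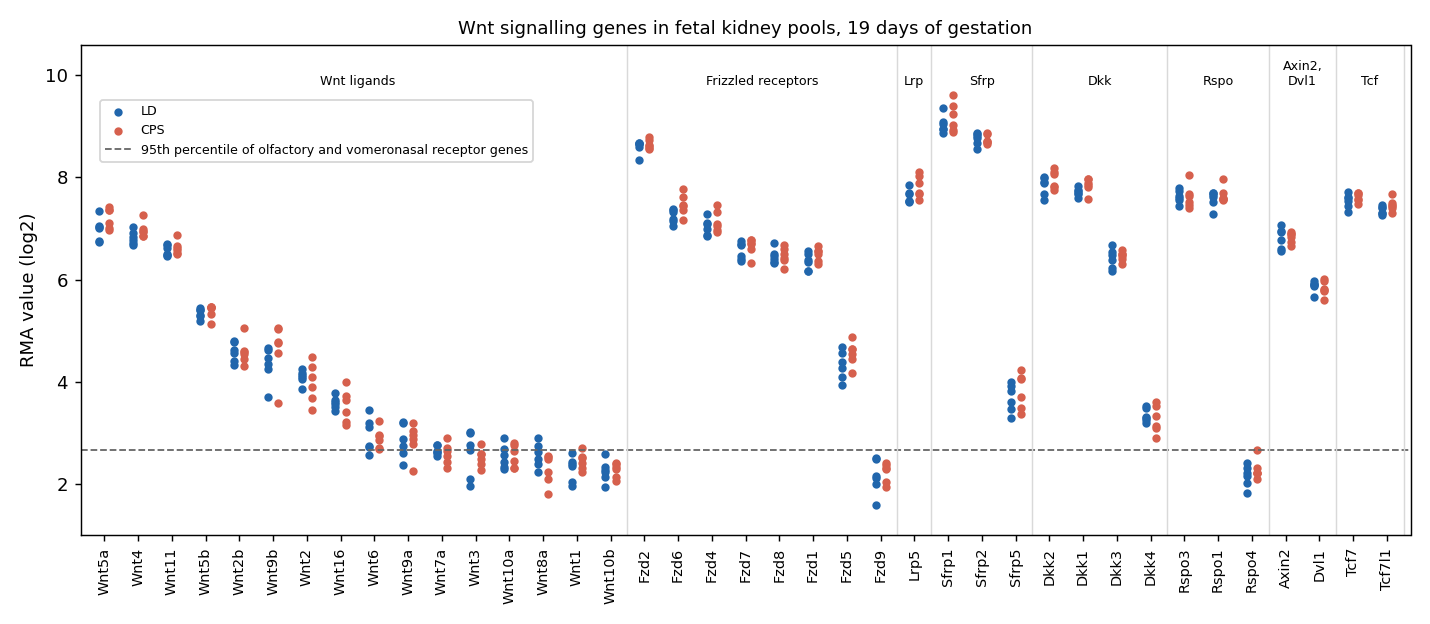
Level of each of the 39 Wnt genes in every pool, as the RMA value (log2) on the vertical axis, with genes in order of mean level within each class. Each point is 1 pool (6 LD, 6 CPS). The dashed line, at 2.66, is the level that 95% of the olfactory and vomeronasal receptor genes stay under. The points of LD and CPS overlap for every gene, and the ligands reach down to the line while most receptors and inhibitors lie well above it.

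Of the 16 ligands 6 lay at or below the dim reference, and of the other 23 genes 2 did. Levels are RMA values, log2 signals that depend on the probes as well as on the transcript. An order of genes or classes by level is therefore only a description, and each gene is set against the dim reference. Of the 39 genes, 31 lay above 2.66, the 95th percentile of the 1245 sensory receptor genes, and 8 at or below it. Those 8 were Wnt1, Wnt3, Wnt7a, Wnt8a, Wnt10a, Wnt10b, Fzd9 and Rspo4. Mean levels of the 16 ligands ran from 2.26 to 7.10 with a median of 3.24, and those of the 8 Frizzled receptors from 2.18 to 8.62 with a median of 6.53. The 4 Dkk genes ran from 3.3 to 7.90, the 3 Sfrp genes from 3.75 to 9.11 and the 3 R-spondins from 2.22 to 7.63. Lrp5 stood at 7.73. Axin2 and Dvl1 stood at 6.82 and 5.85, and Tcf7 and Tcf7l1 at 7.58 and 7.41.

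Fzd6 alone passed the test among the 39 genes, and it was higher in CPS. With the threshold of the study, a p under 0.05 without adjustment, limma called 1 of 39 higher and 0 lower, where it called 2.94% of all named genes higher and 1.78% lower, or 4.72% in either direction. The count is thus no larger than the background share. In 0 of 39 genes did the groups fail to overlap, against 0.295% of all named genes. After Benjamini-Hochberg adjustment over all 36685 clusters, limma called 0% of them, against 1946 clusters unadjusted, and the lowest adjusted p was 0.887. The study's unpaired one-way test called 0 of the 39 genes in either direction.

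**Figure D2:**
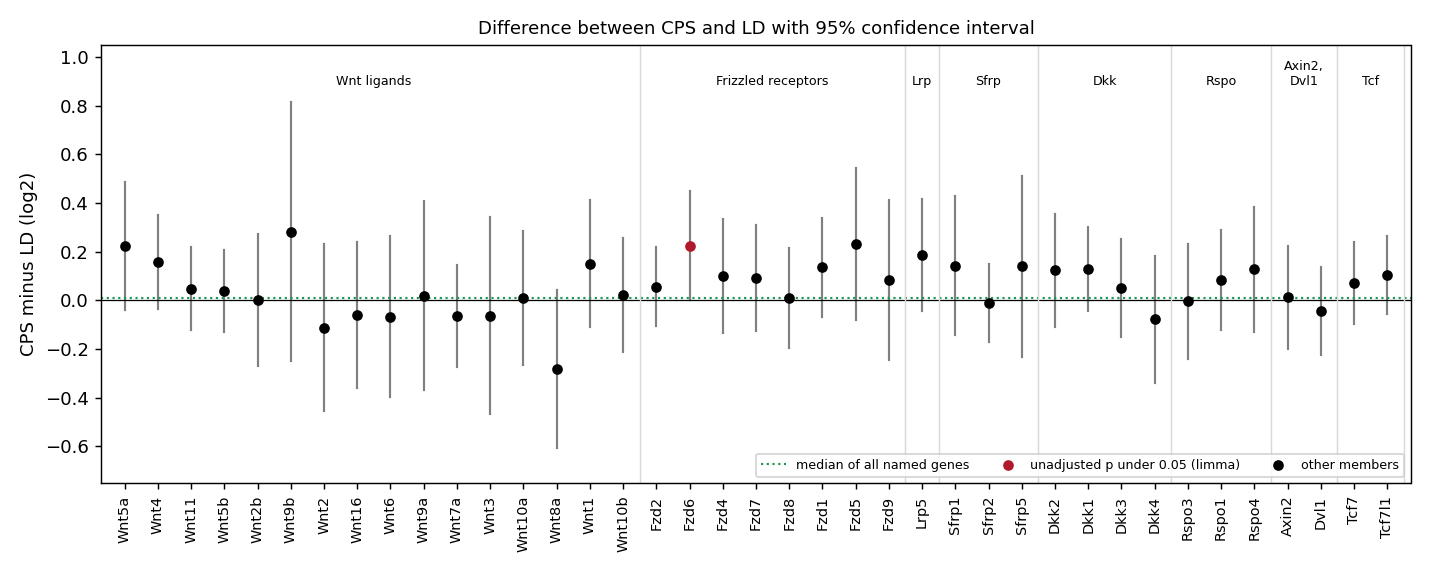
Difference between CPS and LD (log2, CPS minus LD) for each of the 39 Wnt genes, with its 95% confidence interval from limma. The dotted line is the median of all named genes, 0.01. Fzd6, in red, is the one gene whose interval lies above 0. All 8 Frizzled points lie above 0. The ligands fall on both sides, and those below 0 had mean levels of 4.04 or less.

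Most differences were small and positive. Of the 39 genes 29 had a positive difference, 74.4%, against 53.6% of all named genes, and the median difference was 0.06 against 0.01. Among genes at or above the median level of 5.19 the count was 19 of 22, 86.4%, against 52.7% of 7279 named genes. Arrays share their normalization and the genes of 1 pool vary together, so these counts are descriptions. With each array centred on its median, which moved the median of all named genes to 0.05 and their positive share to 66.6%, 31 of 39 were positive. With the liver and adrenal means as covariates, 26 of 39 were positive, against 51.3% of all named genes.

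Among the 16 ligands none passed the test, and 10 had a positive and 6 a negative difference, with a median of 0.01 beside 0.01 for all named genes. Wnt4, which turns induced mesenchyme into epithelium, ranged from 6.67 to 7.03 in LD (median 6.80) and from 6.85 to 7.27 in CPS (median 6.94). All 6 CPS pools lay above the LD median, yet only CPS replicate 5 lay above every LD pool. The difference was 0.16 (SE 0.09, limma p = 0.0999, exact two-sided permutation p = 0.0779). In limma it passed without LD replicate 5 (0.20) and with the liver and adrenal means as covariates (0.34).

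Wnt9b, the inducing ligand of the ureteric epithelium, had the largest positive difference and the widest spread among the ligands. Its values ran from 3.70 to 4.67 in LD (median 4.41) and from 3.58 to 5.05 in CPS (median 4.77). CPS replicate 6 was the lowest of all 12 pools and LD replicate 1 the next, while 4 CPS pools lay above every LD pool. The difference was 0.28 (SE 0.24, 95% interval -0.25 to 0.81, exact two-sided permutation p = 0.318). Without CPS replicate 6 it was 0.49 and passed in limma, so 1 pool decided the call. The SD within groups, 0.46, was larger than that of 95.9% of the 1120 named genes of like level.

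Wnt11, the ligand of the ureteric tips, ranged from 6.47 to 6.70 in LD (median 6.56) and from 6.51 to 6.87 in CPS (median 6.60). The groups overlapped almost wholly and only CPS replicate 4 stood above LD. The difference was 0.05 (95% interval -0.12 to 0.22), and it was -0.03 with the covariates. Wnt2b, a canonical ligand, ranged from 4.34 to 4.8 in LD (median 4.60) and from 4.31 to 5.04 in CPS (median 4.56). CPS replicate 2 was highest, and the difference was 0.0013 (95% interval -0.27 to 0.27), or -0.15 with the covariates.

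Wnt5a, which signals mainly outside the β-catenin branch through Ror2 and Frizzled receptors, ranged from 6.73 to 7.34 in LD (median 7.02) and from 6.97 to 7.43 in CPS (median 7.24). CPS replicates 2, 3 and 4 exceeded every LD pool, of which LD replicate 4 was the highest and LD replicates 5 and 6 the lowest of all pools. The difference was 0.22 (SE 0.12, limma p = 0.0890, exact two-sided permutation p = 0.104). In limma it passed without LD replicate 4 (0.29) and without CPS replicate 1 (0.27), and with the replicate block.

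Wnt8a, known from the early mouse embryo, was at the level of the dim reference. It ranged from 2.24 to 2.90 in LD (median 2.56) and from 1.80 to 2.55 in CPS (median 2.36), with all 6 CPS pools below the LD median. The difference was -0.28 (SE 0.15, limma p = 0.0839, exact two-sided permutation p = 0.115), -0.35 without LD replicate 4 and -0.53 with the covariates, and it passed in limma in both of these fits. At this level a value on the array says little about a transcript. The other 10 ligands had differences between -0.11 (Wnt2) and 0.15 (Wnt1), and none passed the test. Wnt5b, a close relative of Wnt5a, was among the steadiest, with an SD within groups smaller than that of all but 6.45% of 1303 genes of like level. In RefSeq order Wnt9b is next to Wnt3, Wnt10b next to Wnt1 and Wnt6 next to Wnt10a, with 0 coding genes between. In each of these pairs at least 1 gene lay at or below the dim reference.

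All 8 Frizzled receptors had positive differences, with a median of 0.10. This was not particular to them. Among the other pathway genes, 10 of 10 receptors, 6 of 6 secreted inhibitors and 6 of 6 nuclear factors were also positive. Fzd9 turned negative without LD replicate 4, and Fzd8 in 5 of the 12 fits without a single array. Fzd6, a receptor known for planar cell polarity in mouse skin, ranged from 7.05 to 7.38 in LD (median 7.26) and from 7.16 to 7.76 in CPS (median 7.45). CPS replicates 1, 2, 5 and 6 lay above every LD pool, CPS replicate 4 within the LD range, and CPS replicate 3 below the LD median. Fzd6 was higher in CPS by 0.22 (SE 0.10, 95% interval 0.00059 to 0.45, limma p = 0.0495, exact two-sided permutation p = 0.0433, adjusted limma p = 0.887). The call was lost when any of LD replicates 2, 3, 5 and 6 or CPS replicates 1, 2, 5 and 6 was left out, with differences from 0.16 to 0.24. It was also lost in the methods' one-way test, with the replicate block, with array weights (0.21), with the liver and adrenal covariates (0.17) and without the 2 arrays highest in liver genes (0.13).

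Fzd4, which in the mouse acts in retinal vessels and, with Fzd8, in ureteric growth, ranged from 6.86 to 7.28 in LD (median 7.04) and from 6.94 to 7.45 in CPS (median 7.06). CPS replicates 2 and 4 were above LD and the other pools overlapped. The difference was 0.10 (95% interval -0.13 to 0.34), and -0.0076 with the covariates. Fzd8 ranged from 6.33 to 6.72 in LD and from 6.20 to 6.67 in CPS, with medians of 6.43 and 6.46. No CPS pool exceeded LD replicate 4, and the difference was 0.0099 (95% interval -0.19 to 0.21).

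Fzd2, a further receptor, ranged from 8.34 to 8.67 in LD (median 8.65) and from 8.57 to 8.79 in CPS (median 8.62). LD replicate 6 lay apart below all other pools, and the difference was 0.06 (95% interval -0.11 to 0.22). The other receptors Fzd1, Fzd5, Fzd7 and Fzd9 had differences from 0.08 (Fzd9, dim) to 0.23 (Fzd5), none past the test, although Fzd5 passed without CPS replicate 1 (0.31).

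Lrp5, a co-receptor known for its part in bone mass, ranged from 7.53 to 7.86 in LD (median 7.60) and from 7.55 to 8.11 in CPS (median 7.79). CPS replicates 2, 4 and 5 lay above every LD pool and CPS replicate 6 near the lowest. The difference was 0.19 (SE 0.11, limma p = 0.10, exact two-sided permutation p = 0.0823), and 0.24 without CPS replicate 6, where it passed in limma.

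No secreted inhibitor passed the test. Sfrp1, a decoy that binds Wnt proteins through a Frizzled-like domain, ranged from 8.88 to 9.36 in LD (median 9.0) and from 8.90 to 9.61 in CPS (median 9.14). CPS replicates 2 and 4 were the highest, with LD replicate 4 next, and the rest overlapped. The difference was 0.14 (95% interval -0.14 to 0.43), and -0.0066 with the covariates. Its SD within groups, 0.23, was larger than that of 98.2% of 877 genes of like level. Sfrp2, a decoy of the same kind, ranged from 8.55 to 8.87 in LD and from 8.66 to 8.86 in CPS, with medians of 8.80 and 8.70. The CPS pools lay inside the LD range, the difference was -0.01 (95% interval -0.17 to 0.15), and it was 0.03 after median centring and 0.11 with the covariates.

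Dkk1, which blocks the Lrp co-receptors, ranged from 7.59 to 7.84 in LD (median 7.71) and from 7.57 to 7.96 in CPS (median 7.88). CPS replicates 1, 3, 4 and 6 exceeded every LD pool while CPS replicate 2 was the lowest of all. The difference was 0.13 (SE 0.08, limma p = 0.126, exact two-sided permutation p = 0.0931). Without CPS replicate 2, and again without the 2 arrays highest in liver genes, it was 0.18 and passed in limma. Dkk2, which binds the same co-receptors, ranged from 7.55 to 8.00 in LD and from 7.75 to 8.19 in CPS, with medians of 7.90 and 7.95. CPS replicates 3, 4 and 5 lay above LD, and the difference was 0.12 (95% interval -0.11 to 0.36). The remaining genes of these families, Sfrp5, Dkk3 and Dkk4, had differences of 0.14, 0.05 and -0.08, and none passed.

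The R-spondins, ligands of the Lgr receptors that keep Frizzled proteins at the cell surface, showed no call. Rspo1 ranged from 7.28 to 7.70 in LD (median 7.64) and from 7.56 to 7.96 in CPS (median 7.59). CPS replicate 2 was apart at the top and LD replicate 1 at the bottom, and the difference was 0.08 (95% interval -0.12 to 0.29). Rspo3 ranged from 7.45 to 7.80 in LD (median 7.62) and from 7.41 to 8.05 in CPS (median 7.59). CPS replicate 6 was the highest, CPS replicate 2 the lowest, and the difference was -0.0041 (95% interval -0.24 to 0.23). Rspo4 was dim in every pool but CPS replicate 2, which stood at 2.67 beside the reference of 2.66, and its difference was 0.13 (95% interval -0.13 to 0.38).

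The read-outs and transducers inside the cell lay close together in LD and CPS. Axin2, a scaffold of the complex that degrades β-catenin and itself a target of the canonical branch, ranged from 6.57 to 7.07 in LD (median 6.85) and from 6.66 to 6.93 in CPS (median 6.86). All CPS pools fell inside the LD range. The difference was 0.01 (95% interval -0.20 to 0.22), or -0.03 with the covariates. Of 16 listed targets of the canonical branch 10 were measured, Axin2, Tcf7, Dkk1, Lgr5 and Nkd1 among them, and limma called 0 higher and 0 lower at the unadjusted p. With 4.72% of all named genes called, a count of 0 in 10 says little.

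Dvl1, the adaptor beneath the receptors, ranged from 5.66 to 5.97 in LD and from 5.60 to 6.00 in CPS, with medians of 5.90 and 5.81. The groups overlapped and the difference was -0.04 (95% interval -0.22 to 0.14). Tcf7, a nuclear partner of β-catenin, ranged from 7.33 to 7.72 in LD and from 7.48 to 7.70 in CPS, with a difference of 0.07 (95% interval -0.10 to 0.24). All CPS pools were inside the LD range. Tcf7l1, which mainly represses in the absence of β-catenin, ranged from 7.26 to 7.47 in LD and from 7.30 to 7.68 in CPS, with CPS replicates 1 and 2 above LD. Its difference was 0.10 (SE 0.07, limma p = 0.184, exact two-sided permutation p = 0.123).

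Of the 65 other listed genes of the pathway, 46 were measured. By limma 1 was higher in CPS and 0 were lower, a count near the background of 4.72%. A positive difference was found in 39 of 46 (84.8%), against 53.6% of all named genes, and in 33 of 46 (71.7%) with the covariates, against 51.3%. Gsk3b, the kinase that marks β-catenin for degradation, ranged from 9.44 to 9.86 in LD (median 9.60) and from 9.63 to 10.07 in CPS (median 9.87). All 6 CPS pools exceeded the LD median and 3 exceeded every LD pool. It was higher by 0.21 (SE 0.10, limma p = 0.0444, exact two-sided permutation p = 0.0476, adjusted limma p = 0.887). The call was lost without any of LD replicates 1, 3, 5 and 6 or CPS replicates 1, 2, 4 and 5, with differences from 0.17 to 0.22, with the covariates (0.20), after median centring (0.25) and without the 2 arrays highest in liver genes (0.15).

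Lgr5, an R-spondin receptor, ranged from 5.51 to 6.07 in LD and from 5.97 to 6.33 in CPS, with a difference of 0.23 (SE 0.11, limma p = 0.0509, exact two-sided permutation p = 0.0346). LD replicate 6 stood apart at 5.51 and the other LD pools overlapped with CPS. Its call turned on the setting, and it passed in 6 of the alternatives that keep all arrays and without LD replicate 2 or 3 or CPS replicate 1 or 6 (0.25 to 0.27). Its relative Lgr4 had a difference of 0.12 (95% interval -0.13 to 0.38). Ctnnb1, β-catenin itself, ranged from 11.16 to 11.28 in LD and from 11.07 to 11.23 in CPS, with a difference of -0.06 (95% interval -0.18 to 0.06). Prickle1, a planar polarity gene named after its values were seen, ranged from 7.62 to 7.70 in LD (median 7.64) and from 7.46 to 7.63 in CPS (median 7.56). CPS replicate 5 lay inside the LD range and the other 5 CPS pools below every LD pool. The difference was -0.10 (SE 0.06, limma p = 0.106, exact two-sided permutation p = 0.00866, adjusted limma p = 0.887). That exact p was the lowest among the 85 pathway genes and is not adjusted for having been picked from them. Prickle1 passed in the methods' one-way test but not in limma. Wls and Porcn, which carry and acylate Wnt proteins on the way out of the cell, differed by 0.03 and 0.17. Wif1 and Frzb, further secreted inhibitors, differed by 0.08 (-0.01 with the covariates) and 0.14, and Nkd1, which binds Dvl proteins, by -0.03. None of these passed, although Porcn passed without LD replicate 5 (0.23), without CPS replicate 6 (0.24) and with the covariates (0.32), and Frzb without CPS replicate 6 (0.24) and with the covariates (0.35).

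Across the 12 pools some Wnt genes varied together, in LD as in CPS. The pools were not chosen for this, but the pairs were picked as the closest among the 741 possible, so their correlations are descriptions with no p, and the points share one normalization. Fzd4 and Sfrp1 had the highest Pearson r, 0.935 (Spearman rho 0.874), with 0.861 within LD, 0.970 within CPS and 0.831 without CPS replicates 2 and 4. Fzd1, a receptor, and Wnt5a followed with r = 0.907 (rho 0.895), 0.932 within LD, 0.818 within CPS and 0.808 without LD replicates 5 and 6. LD replicate 4 and CPS replicates 2 and 4 were high in Fzd4, Sfrp1, Fzd1 and Wnt5a alike, and LD replicates 5 and 6 were low. Rspo1 and Rspo4 came next in order with r = 0.817, but this fell to 0.0261 without LD replicate 1 and CPS replicate 2 and so rested on them.

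**Figure D3:**
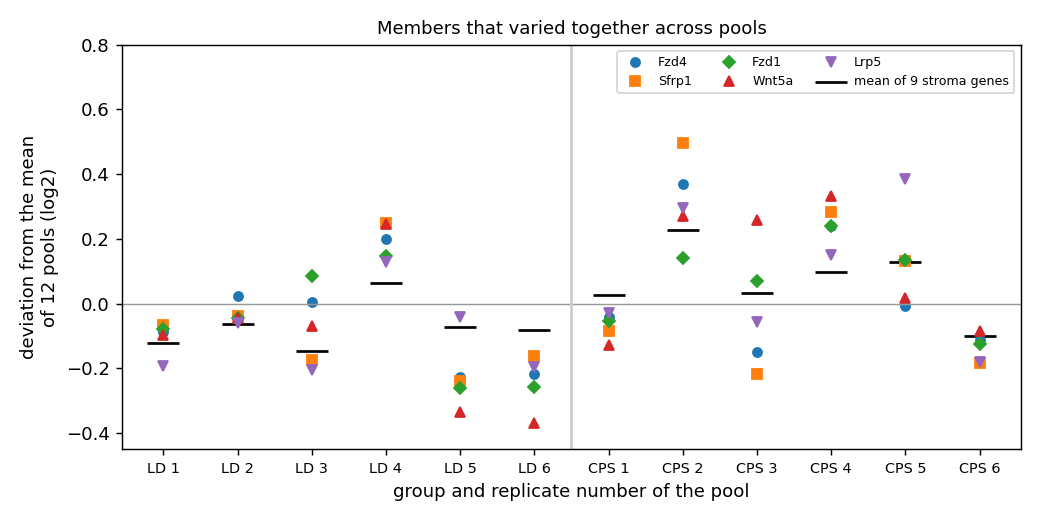
Deviation of 5 Wnt genes from their own mean over the 12 pools (log2, vertical axis) in each pool, with the mean of 9 stroma genes as a black bar. All 5 genes lie above 0 in LD replicate 4 and in CPS replicates 2 and 4, and below 0 in LD replicates 1, 5 and 6 and in CPS replicates 1 and 6.

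The means of several kidney marker lists moved with Lrp5, Sfrp1, Fzd4, Fzd1 and Wnt5a, and no single list gave the highest r for all. Ureteric bud gave r from 0.646 (Wnt5a) to 0.837 (Fzd4), and stroma from 0.658 (Fzd1) to 0.921 (Lrp5). Over the 6 kidney lists and the 12 pools, Pearson r with Lrp5 ran from 0.590 to 0.921, highest for stroma (rho 0.937, 0.936 within LD and 0.890 within CPS). For Sfrp1 it ran from 0.580 to 0.832, with ureteric bud at 0.832 and stroma at 0.831. Fzd4 gave 0.567 to 0.837, highest for ureteric bud and at 0.713 for stroma. Without CPS replicates 2 and 4 the r of Fzd4 was 0.831 with ureteric bud and 0.383 with stroma, which thus rested on those pools. For Fzd1 and Wnt5a the proximal tubule list was highest, at 0.821 and 0.761, with stroma at 0.658 and 0.690 and ureteric bud at 0.808 and 0.646. The liver list, of a neighbouring tissue, gave r from 0.254 (Fzd1) to 0.574 (Sfrp1) with these genes. All genes measured in these lists lay above the dim reference. The stroma mean ranged from 8.16 to 8.37 in LD and from 8.21 to 8.53 in CPS, with 3 of 9 genes higher in CPS by limma and 1 lower. Of all named genes, limma called 2.94% higher and 1.78% lower. The ureteric bud mean ranged from 7.60 to 7.82 and from 7.66 to 7.83, with 1 of 8 higher, and the proximal tubule mean from 6.19 to 6.76 and from 6.24 to 6.97, with 0 of 4 called. Their part in the differences between LD and CPS was not tested.

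Wnt9b moved with Gata3, a transcription factor of the ureteric epithelium. Its Pearson r was 0.879 (rho 0.811), with 0.796 within LD, 0.899 within CPS and 0.698 without the 2 pools lowest in Wnt9b. With Cdh1, the epithelial cadherin, r was 0.706 (rho 0.797) and 0.801 without those pools. The other 6 ureteric markers gave r from -0.411 (Krt8) to 0.435 (Gfra1), and the mean of the 8 ureteric markers 0.497. The means of the stroma and nephron progenitor lists gave r of 0.724 and 0.708 with Wnt9b, so its likeness was not to ureteric genes alone. Nor was it to kidney lists alone, since the liver list gave r = 0.520 (rho 0.587). Gata3 and Cdh1 were singled out after the values were seen.

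**Figure D4:**
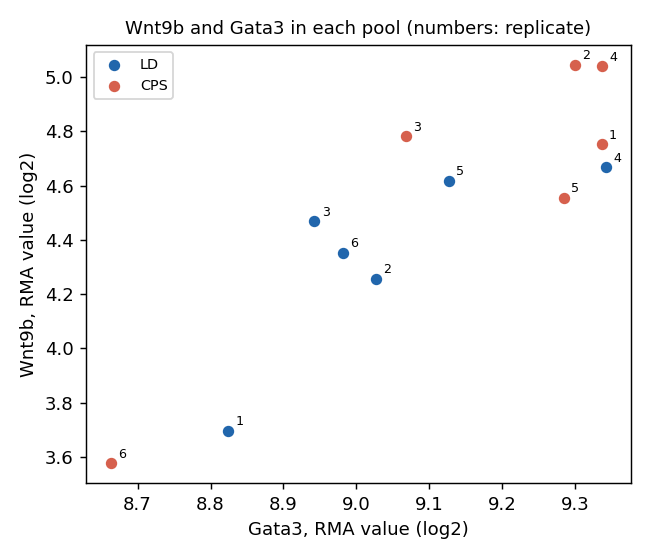
Wnt9b (vertical axis) against Gata3 (horizontal axis), both as RMA values (log2), 1 point per pool with its replicate number, LD in blue and CPS in red. LD replicate 1 and CPS replicate 6 are low in both genes, and the other pools lie above them in both.

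Pairs of genes linked in mouse kidney were also read. They were listed by name, while the pairs above were picked as the closest, so their strengths cannot be compared. 8 pairs were tested over the 12 pools, with p from permutation adjusted by Benjamini-Hochberg over the 8. The highest Pearson r was that of Wnt4 with Lhx1, a transcription factor of the early nephron (r = 0.593, permutation p = 0.0442, adjusted 0.258, and rho = 0.559, permutation p = 0.0619, adjusted 0.197). Within LD r was 0.533, within CPS 0.760, and without LD replicate 1 and CPS replicate 5 it was 0.560. Wnt5a with its receptor Ror2, the pair of highest rho, gave r = 0.550 (permutation p = 0.0644, adjusted 0.258) and rho = 0.587 (permutation p = 0.0499, adjusted 0.197). Axin2 with Nkd1, both canonical targets, gave r = 0.501 (permutation p = 0.0987, adjusted 0.263) and rho = 0.510 (permutation p = 0.0945, adjusted 0.197). For Wnt9b with Wnt4, r was 0.424 (adjusted permutation p = 0.345), 0.799 within LD and 0.0594 within CPS. The other 4 pairs had r between -0.249 and 0.151, and none of the 8 had an adjusted p under 0.05. Wnt9b with Wnt11 had r = -0.851 within LD and 0.577 within CPS, and the difference between the groups was not tested.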

How the data were processed

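The log2 values deposited by the authors come from Robust Multiarray Average (RMA): a background correction, a quantile normalization over the arrays and a summary of the probes of each cluster. The tool in the submitters' processing notes is the Affymetrix Expression Console, of a version not given in the sources used. The table does not name the log base, and its range is that of RMA log2 values. Of 36685 clusters, the platform annotation gave 1 symbol for 14824, several for 829 and none for 21032. A gene with several clusters was read from the one of highest mean, which left 14557 genes, and all 39 Wnt genes matched RefSeq. 0 columns were left unmapped. Scans and detection calls were not used here.

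Groups follow the sample titles, and the pools are the replicates. The spread therefore covers pools, read as of different mothers. LD and CPS were compared over all clusters with limma 3.58.1 (lmFit and eBayes, two-sided) in R 4.3.3, at an unadjusted p under 0.05 and after Benjamini-Hochberg adjustment. Named genes were also tested by two-sided exact permutation, with 924 ways to relabel the pools, whose smallest p is 0.00216, with SciPy 1.17.1 in Python 3.11.15. Correlations used 100000 permutations. Precision is limited by the number of arrays. The dim reference is the 95th percentile of genes whose symbols begin with Olr, Or or Vom, and the Or symbols were added once the annotation had been read.

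The Wnt genes and the lists were chosen with earlier results of these data known. Described singly are the called genes, the 2 of highest mean and the 1 of lowest p in each class, and those known from mouse kidney. From the rest of the pathway these were the called genes and a short list by name. Alternatives were the replicate block, the unpaired one-way test of the study's methods, array weights, an intensity trend with robust spread, a filter at the median level, further quantile normalization, median centring, the means of the liver and adrenal lists as covariates, leaving out in each group the array highest in liver genes, and leaving out each array in turn. On simulated arrays with 36685 clusters, limma found 79 of 100 clusters changed by a log2 of 0.5 at the unadjusted p and 31 after adjustment, and 98 and 73 of 100 changed by 1. It called 5.04% of unchanged clusters unadjusted and 7 of them after adjustment. The simulated noise was independent between clusters, whereas genes of 1 pool vary together, so these rates need not hold for the real arrays. Changes smaller than 0.5 were not simulated.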

Additional observations from a re-analysis of the deposited data

Results flagged for a closer look

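In 8 of 62 groups of 6 pools, over 31 genes, 1 pool lay apart from the other 5, its gap to the nearest being over 0.625 of the whole range. For independent normal values chance alone gives this in about 1 in 20 groups. These groups share arrays and their genes vary together, so the count cannot be read against that rate. Wnt4 was 7.27 in CPS replicate 5, with the others from 6.85 to 7.0, and Wnt9b was 3.58 in CPS replicate 6, with the others from 4.55 to 5.05. Rspo1 was 7.96 in CPS replicate 2, with the others from 7.56 to 7.70. Dvl1 was 5.66 in LD replicate 4, with the others from 5.88 to 5.97, and Ctnnb1 was 11.28 in LD replicate 1, with the others from 11.16 to 11.20. LD replicate 6 lay apart at the low end, by this rule, in 3 of the 31 genes. It had 8.34 for Fzd2 (others 8.60 to 8.67), 8.82 for Lgr4 (others 9.32 to 9.57) and 5.51 for Lgr5 (others 5.99 to 6.07). These 3 are receptor genes, but genes outside the 31 were not screened. Csnk1g3, a kinase gene outside the 31, was also lowest in this pool, at 7.06 with the next LD pool at 7.61. The pool had the highest liver mean (6.76) and the lowest podocyte mean (6.35) in LD.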

How the results depend on the processing

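With 6 pools per group a log2 difference of about 0.2 lies at the edge of what limma called, and no gene passed adjustment in any alternative run. The count of Wnt genes called higher, 1, was 0 in the one-way test and with array weights, and 0 to 2 when single arrays were left out. The called gene was Wnt5a with the replicate block, Wnt4 with the covariates and Dkk1 without the 2 arrays highest in liver genes. The count called lower, 0, was 1 with the covariates (Wnt8a) and 0 to 1 when single arrays were left out. Of the other pathway genes, 3 were called higher with the replicate block, 2 with the intensity trend, array weights, further quantile normalization, the median-level filter or the covariates, 0 without the 2 arrays highest in liver genes, and 0 to 5 when single arrays were left out. The one-way test called 1 lower, Prickle1.

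Same-numbered pools of LD and CPS did not deviate together (r from -0.0639 to 0.0461, and 0 of 6 correlated best with their own number). Whether they shared any handling was not tested. With the replicate block Wnt5a (0.22), Lgr5 (0.23) and Bcl9l (0.28) passed in limma and Fzd6 did not. With the covariates 9 of the 39 and 6 of the 46 other pathway genes changed sign, without the 2 arrays highest in liver genes 5 and 9, after median centring 2 and 4, and after further quantile normalization 2 and 1. Among the 31 genes described singly, the differences of changed sign with the covariates were Wnt11 -0.027, Wnt2b -0.15, Fzd4 -0.0076, Sfrp1 -0.0066, Sfrp2 0.11, Axin2 -0.032 and Wif1 -0.015. Without the 2 arrays highest in liver genes these were Wnt2b -0.095, Rspo3 0.034, Axin2 -0.058 and Wls -0.034. Median centring gave Sfrp2 0.026, Rspo3 0.033 and Nkd1 0.0067, and further quantile normalization gave Sfrp2 0.0021 and Rspo3 0.00057. Leaving out single arrays also changed signs, over ranges given by gene. These were -0.00023 to 0.074 for Wnt11, -0.090 to 0.058 for Wnt2b, -0.032 to 0.062 for Fzd8, -0.053 to 0.011 for Sfrp2, -0.089 to 0.040 for Rspo3, -0.037 to 0.064 for Axin2, -0.086 to 0.0035 for Dvl1, -0.034 to 0.058 for Wls and -0.069 to 0.019 for Nkd1. The cause was not tested. A second cluster per gene gave no value, since each gene had 1.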
